A study of Mus musculus with 12 samples.

Results

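Apolipoprotein mRNAs were followed in the livers of fasted mice with and without hepatic fatty acid oxidation. Of the 56748 genes of the deposited count table, 10 were taken by symbol, namely Apoa1, Apoa2, Apoa4, Apoa5, Apob, Apoc1, Apoc2, Apoc3, Apoe and Apom. RNA-seq had been performed on whole livers of 12 mice after a 24 h fast. The 4 SKO mice lacked Cpt2 in the liver, the 4 DKO mice lacked both Atf3 and Cpt2 there, and the 4 controls, called WT here, carried floxed Cpt1a, Cpt1b and Cpt2 alleles. Knockouts came from floxed lines crossed to an albumin-Cre transgene, which is active in hepatocytes, so liver cells in which it is not active keep the floxed alleles. All 3 genotypes shared the fast, so no fed state can be compared, and the labels give no floxed Atf3 allele for the controls, no age, no sex and no batch. Cpt2 encodes the inner membrane enzyme that completes the carnitine-dependent import of long-chain fatty acids into mitochondria, and Atf3 encodes a stress-induced transcription factor of the ATF/CREB family. The comparisons ask which apolipoprotein mRNAs differ when the liver cannot oxidize long-chain fatty acids, and whether the loss of Atf3 alters that response.

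Apolipoproteins are the protein part of lipoproteins, the particles that carry triglyceride and cholesterol through the blood. Apolipoprotein B is the non-exchangeable scaffold of very low density lipoprotein (VLDL), which the liver secretes, whereas the A, C, E and M proteins are small amphipathic proteins that move between particles. The C proteins and apolipoprotein A5 set how fast lipoprotein lipase removes triglyceride, apolipoprotein E is a ligand of the receptors that clear remnants, and apolipoproteins A1, A2 and M belong mainly to high density lipoprotein (HDL). Apolipoprotein A4 is made by the intestine with chylomicrons, and in rodents also by the liver. In the mouse several of these genes lie side by side, with Apoa1, Apoc3, Apoa4 and Apoa5 in a cluster on chromosome 9 and Apoe, Apoc1 and Apoc2 in another on chromosome 7.

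The sequence before the start of the gene is shown for Apoa4 and its cluster neighbour Apoa1, since these genes of 1 cluster behaved differently, and for Apoa2, Apob and Apoe, which were lower in SKO livers. They are RefSeq promoter windows of GRCm38.p6, read 5′ to 3′ on the coding strand, and end at the base before both the RefSeq and the GENCODE M21 start of the gene. Capitals mark matches to 7 motifs searched on both strands, namely the cAMP response element TGACGTCA, its core TGACG (which overlaps it), the AP-1 site TGANTCA, the amino acid response element TGATGNAA, the HNF4A element CAAAGTCCA, the nuclear receptor element AGGTCA and the TATA box TATAAA.
Apoa4, chr9:46240594-46240695, plus strand: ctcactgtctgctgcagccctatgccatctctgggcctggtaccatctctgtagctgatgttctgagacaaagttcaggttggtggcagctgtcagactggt
Apoa1, chr9:46228380-46228579, plus strand: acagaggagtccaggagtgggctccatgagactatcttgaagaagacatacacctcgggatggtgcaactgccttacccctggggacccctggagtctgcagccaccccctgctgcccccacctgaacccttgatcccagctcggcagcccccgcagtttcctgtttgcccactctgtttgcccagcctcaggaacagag
Apoa2, chr1:171224804-171225053, plus strand: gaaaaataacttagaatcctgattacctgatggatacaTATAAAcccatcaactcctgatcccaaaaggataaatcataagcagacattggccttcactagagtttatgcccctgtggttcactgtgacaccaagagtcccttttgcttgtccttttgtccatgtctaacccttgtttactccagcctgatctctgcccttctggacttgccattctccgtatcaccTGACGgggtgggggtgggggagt
Apob, chr12:7977427-7977647, plus strand: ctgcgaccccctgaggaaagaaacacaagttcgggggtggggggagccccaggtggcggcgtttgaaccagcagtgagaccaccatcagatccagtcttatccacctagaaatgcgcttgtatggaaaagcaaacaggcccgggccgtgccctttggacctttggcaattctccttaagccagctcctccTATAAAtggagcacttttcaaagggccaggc
Apoe, chr7:19699189-19699438, minus strand: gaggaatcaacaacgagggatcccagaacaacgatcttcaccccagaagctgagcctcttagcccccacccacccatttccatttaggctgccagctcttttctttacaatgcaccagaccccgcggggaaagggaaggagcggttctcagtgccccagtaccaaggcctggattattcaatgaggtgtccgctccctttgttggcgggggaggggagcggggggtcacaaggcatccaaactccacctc

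The Apoa4 window of 102 bases held none of the 7 motifs, where 19% of the windows of that length among 32851 RefSeq promoters held at least 1. The Apoa1 window of 200 bases and the Apoe window of 250 bases also held none, against 36% and 45% of all promoters. Where the table has several starts of a gene, the most upstream one inside a GENCODE transcript is shown. Apoe has 2 further starts, whose windows lie inside the annotated gene, and 1 of these windows held the amino acid response element and 2 TATA boxes. The Apob window held a TATA box 31 bases before its end, a match found in 9.99% of windows of that length. The Apoa2 window held the core TGACG 23 bases and a TATA box 212 bases before its end, which 17.8% and 12.4% of promoters hold. The absence of a match says only that these letters are not in these windows. The Apoa4 window also lies within Gm47528, a transcript annotated on the opposite strand. Of the 10 genes, 8 matched an entry of the promoter table, and Apoc1 and Apoc3 did not.

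Total counts ran from 14710304 to 20030055 per liver. The level of a gene is given as CPM, counts per 1000000 counts of a library scaled by edgeR's TMM method, and a gene without counts could still have up to 3 by chance, or 0.145 to 0.196 CPM, a limit that covers counting error only. Cpt2 had 199 to 252 CPM in WT livers, whereas the SKO livers had 109 to 157 and the DKO livers 102 to 127. Atf3 had 17 to 39 counts in WT livers and 259 to 1056 in SKO livers, with 164, 177, 265 and 5 in DKO replicates 1 to 4, and the table does not separate reads on the deleted exons. SKO replicate 3 and DKO replicate 4 had 18063 and 20855 counts on Xist and 2 and 0 on 4 Y-linked genes, whereas the other 10 livers had at most 19 and at least 2741, and the study describes the mice of this experiment as male. DKO replicate 4 also stood apart from the other DKO livers in several apolipoprotein genes, so the main DKO results are given with and without it. The hepatocyte list summed to 75652 to 94329 CPM in WT and 39057 to 67859 in SKO livers, and 6 of its 9 tested genes were called lower in SKO, where 15.4% of all genes tested were. Among the 6 was Alb, the albumin gene, with 59283 ± 6088 and 31691 ± 10518 CPM (mean ± SD, n = 4). Cholangiocyte markers summed to 28.0 to 33.6 CPM over WT livers, 7.37 to 14.3 over SKO livers and 9.63 to 31.8 over DKO livers, and stellate cell markers to 193 to 227, 260 to 352 and 246 to 313 CPM, so that in SKO the first list was below and the second above the WT range. Endothelial markers summed to 145 to 298, 192 to 237 and 156 to 239.8 CPM. In whole liver, fewer cells of a type and less RNA per cell cannot be told apart.

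In SKO livers Apoa4 mRNA was raised 19.2-fold, while Apoc1, Apom, Apoa2, Apob and Apoe were lower than in WT and the remaining genes did not pass the test. Apoa4 (ENSMUSG00000032080, chromosome 9 from 46151994 to 46154757 in the table's coordinates) had 821, 869.9, 374 and 411 CPM in WT replicates 1 to 4. In SKO replicates 1 to 4 it had 8599, 16470.3, 7525 and 14449 CPM. Every SKO liver was thus above every WT liver, with the lowest SKO value far beyond the highest WT value. The means were 619 ± 263 and 11761 ± 4372 CPM (SD, n = 4), a log2 fold change of 4.26 with a standard error of 0.38 (adjusted p = 1.37e-05, edgeR quasi-likelihood F test, Benjamini-Hochberg adjusted over 14261 genes). Leaving out any 1 of the 8 livers gave log2 fold changes of 4.05 to 4.46, each past the threshold. Apoa4 is an enterocyte gene as well, and of the 12 enterocyte markers Sis, Cdx1 and Cdx2 were at 0 in all 12 livers. The enterocyte list summed to 82.0 to 101 CPM in WT and 193 to 479 CPM in SKO livers, nearly all of it from Fabp2, the intestinal fatty acid binding protein gene that liver also expresses, with 79.6 to 98.7 CPM in WT and 191 to 478 in SKO.

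**Figure D1:**
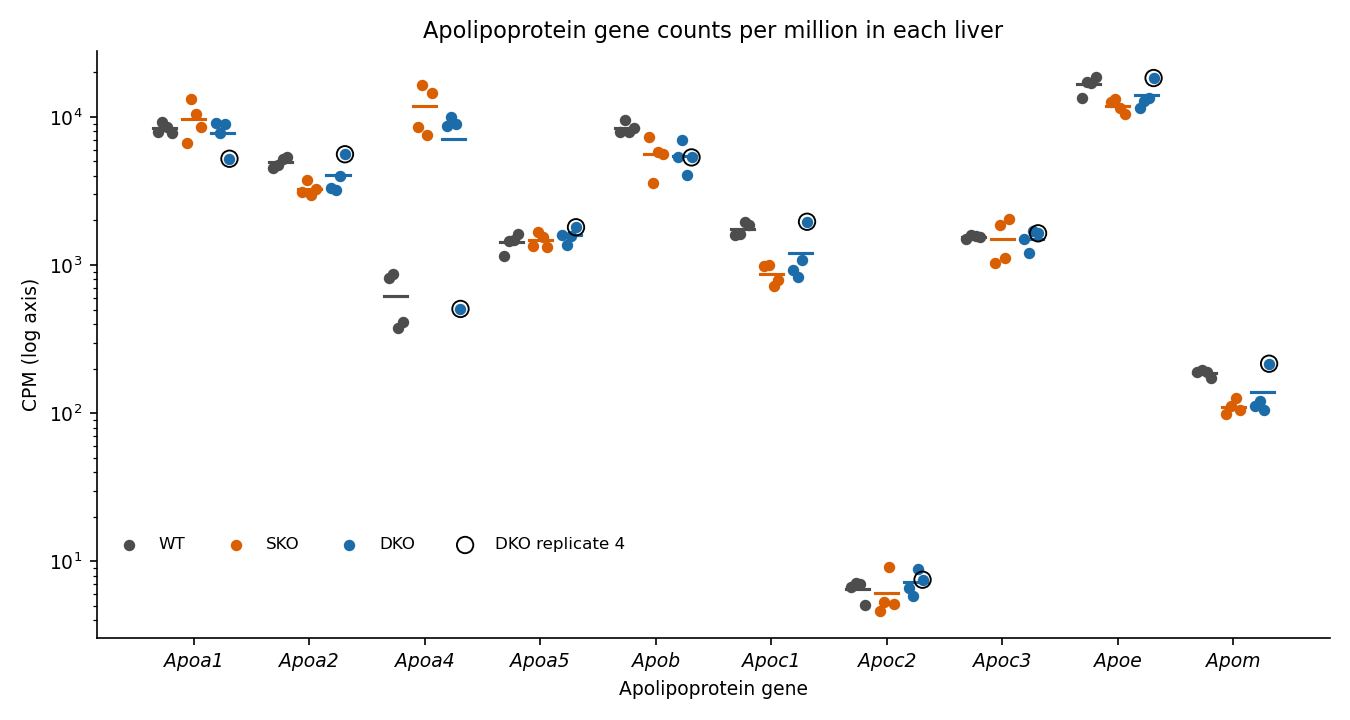
CPM (log axis) of the 10 apolipoprotein genes in each of the 12 livers, grouped by genotype. Points are livers, bars are means of 4 livers and the ring marks DKO replicate 4. Apoa4 lay at 374 to 869.9 CPM in WT livers, 7525 to 16470.3 in SKO livers and 8654 to 10050.2 in DKO replicates 1 to 3, and at 506 in DKO replicate 4.

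Apoc1 showed the largest fall by fold among the 10 genes. It encodes a small protein that restrains lipoprotein lipase and the receptor uptake of remnants. Its CPM was 1600.45, 1628, 1964 and 1864 in the WT replicates and 979, 1002, 721 and 795 in the SKO replicates. The ranges did not overlap, and Apoc1 was 1.99-fold lower in SKO (standard error of the log2 fold change 0.16, adjusted p = 0.000536, edgeR). Apom, whose product carries sphingosine 1-phosphate in HDL, had 189, 196, 190.4 and 174 CPM in WT and 99.6, 112, 127 and 105 in SKO. It was 1.68-fold lower with no overlap (log2 fold change −0.75, standard error 0.12, adjusted p = 0.000584, edgeR). Apoa2, the second protein of HDL, had 4485, 4769.9, 5195 and 5332 CPM in WT and 3131, 3751, 2966 and 3275 in SKO. All 4 SKO livers were again below the lowest WT liver, a 1.49-fold difference (log2 fold change −0.58, standard error 0.14, adjusted p = 0.00877, edgeR). These 3 calls held under each of the 17 alternatives tried, with log2 fold changes of −1.07 to −0.82 for Apoc1, −0.81 to −0.57 for Apom and −0.65 to −0.40 for Apoa2.

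The falls of Apoe and Apob were near the threshold. Apoe, the remnant receptor ligand, had 13481, 17245.5, 17058 and 18461 CPM in WT and 12642, 13141, 11421 and 10501 in SKO livers. The lowest WT liver was only slightly above the highest SKO liver, and the log2 fold change was −0.46 with a standard error of 0.16 (adjusted p = 0.0450, edgeR). Apob, the scaffold of VLDL, had 7875, 9539, 7966 and 8470.2 CPM in WT and 7354, 3595, 5814 and 5636 in SKO livers. SKO replicate 2 was the lowest and SKO replicate 1 close to the WT range, and the log2 fold change was −0.58 with a standard error of 0.20 (adjusted p = 0.0468, edgeR). Over the 17 alternatives the adjusted p ran from 0.00451 to 0.141 for Apoe and from 0.00989 to 0.150 for Apob (edgeR and DESeq2), with 6 and 5 of them past the threshold. Leaving out single livers ended the Apoe call for 5 of the 8 livers, WT replicates 2, 3 and 4 and SKO replicates 3 and 4 (adjusted p = 0.0660 to 0.114), and the Apob call for 7 of the 8, all other than SKO replicate 1 (adjusted p = 0.0588 to 0.121).

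The other 4 genes did not pass the test in SKO against WT livers. Apoa1, the main protein of HDL, had 7929, 9180.4, 8570.1 and 7772 CPM in WT and 6705, 13173, 10411.5 and 8611 in SKO. The SKO livers spread to both sides of the WT range (log2 fold change 0.23, standard error 0.20). Apoc3, which inhibits lipoprotein lipase, stayed between 1506 and 1589.6 CPM in WT but lay at 1033, 1862, 1108 and 2040.1 CPM in SKO. A pair of SKO livers was below and the other pair above every WT liver, so the group means of 1551 ± 34.6 and 1511 ± 515 CPM (SD, n = 4) were close while the spread was not, and the difference in spread was not tested. Apoa5, an activator of lipolysis by lipoprotein lipase, had 1149.8 to 1611 CPM in WT and 1333 to 1659.6 in SKO (log2 fold change 0.07, standard error 0.15). Apoc2, the cofactor that lipoprotein lipase requires, had only 92 to 129 counts in WT and 72 to 178 in SKO livers. Its coordinates, from 19405504 to 19411866, share 6358 bases with Apoc2l, so nearly the whole gene is shared. Apoc2l is annotated on the same strand and was counted 0 to 1 times per liver. How reads on shared bases were assigned is not given in the sources used here, so the counts of Apoc2 are uncertain.

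The livers in which Apoc1, Apom, Apoa2, Apoe and Apob were lower also had the lower hepatocyte marker sums given above, whose part in these differences was not tested. All 10 genes passed the filter on low counts in each comparison. In SKO against WT livers 6 of the 10 were past the adjusted threshold, 1 higher and 5 lower, where 32.1% of all genes tested were called, 16.7% higher and 15.4% lower. Ranges that did not overlap were seen in 1 gene that was higher and 5 that were lower, against 16.4% and 16.6% of all genes. The median log2 fold change of the 10 genes was −0.27 beside 0.03 over all genes tested.

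**Figure D2:**
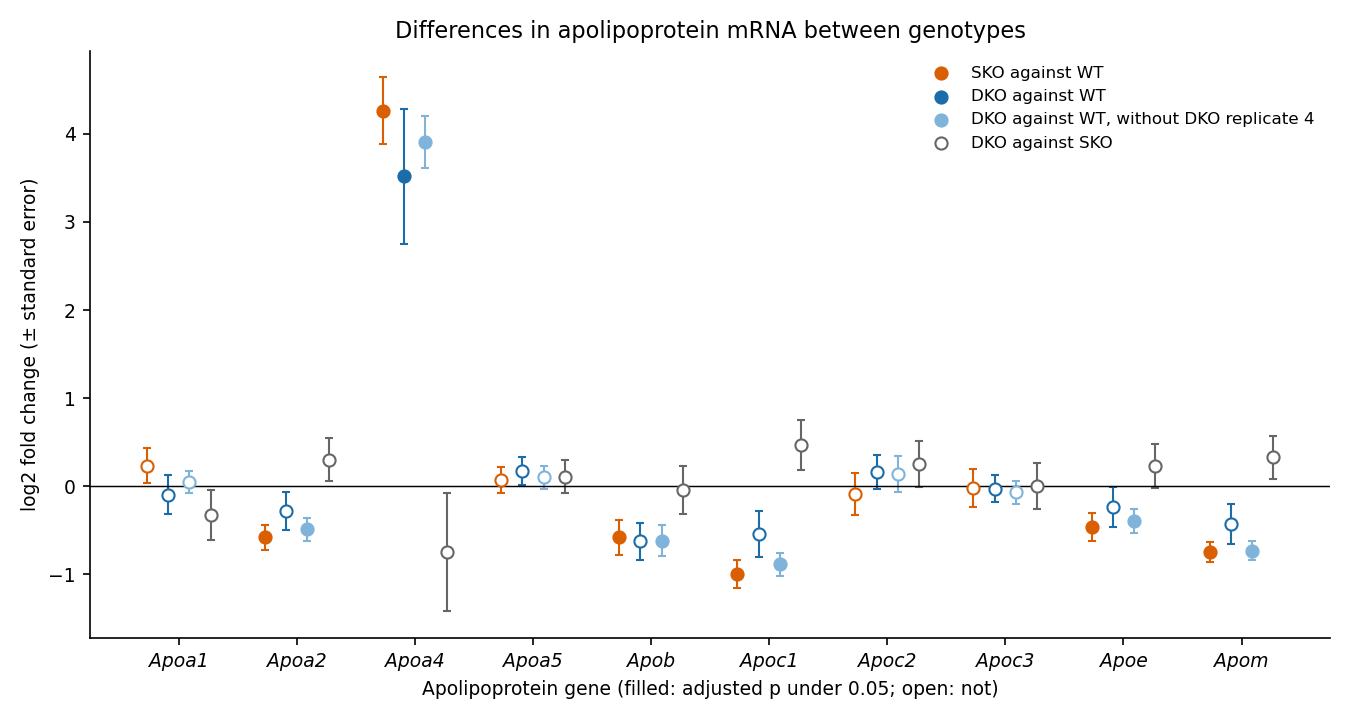
Log2 fold changes with standard errors of the 10 apolipoprotein genes between genotypes, from edgeR fits of 4 against 4 livers and, in light blue, of 3 DKO against 4 WT livers. Filled points passed an adjusted p of 0.05. Apoa4 stood at 4.26 in SKO against WT, 3.52 in DKO against WT and 3.90 without DKO replicate 4, and no gene was past the threshold in DKO against SKO.

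In DKO livers Apoa4 was again the gene with the largest difference from WT, by 11.4-fold over 4 livers. Its CPM was 8654, 10050.2, 8965 and 506 in DKO replicates 1 to 4. The first 3 livers were above every WT liver and close to each other, at 9223 ± 733 CPM (SD, n = 3), whereas replicate 4 lay inside the WT range of 374 to 869.9. With all 4 livers the log2 fold change was 3.52 with a standard error of 0.76 (adjusted p = 0.0244, edgeR), and without replicate 4 it was 3.90 with a standard error of 0.30 (adjusted p = 4.82e-06, edgeR). Leaving out any 1 of the other 7 livers kept replicate 4 in the fit and ended the call, at adjusted p = 0.0594 to 0.0766 (edgeR). Every DKO liver also had more counts on rRNA genes than every WT liver, at 1.405, 2.69, 1.80 and 2.80% of all counts against 0.452 to 1.36%, with 0.713 to 1.46% in SKO livers, and the part of this in the DKO values was not tested. One set of 4 WT livers served both comparisons, so these results are not independent of each other.

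Of the genes that fell in SKO, none passed the adjusted threshold over 4 DKO livers in the main edgeR fit, whereas DESeq2 called Apob (adjusted p = 0.00676). In the edgeR fit Apoa4 was the 1 gene of 10 called, where 10.5% of all genes tested were, 6.06% higher and 4.39% lower. Apob was the 1 gene whose DKO range was separate and lower, as it was for 8.89% of all genes. Apob had 5388, 7033, 4027 and 5327 CPM in the DKO replicates, each below the lowest WT liver at 7875 (log2 fold change −0.63, standard error 0.21, adjusted p = 0.0817, edgeR). Without DKO replicate 4, 6 of the 10 genes were called, Apoa4 higher and 5 lower, while 35.9% of all genes tested were called, 18.4% higher and 17.5% lower. The log2 fold changes were then −0.89 for Apoc1 (adjusted p = 0.000450), −0.73 for Apom (adjusted p = 0.000302), −0.62 for Apob (adjusted p = 0.0188), −0.49 for Apoa2 (adjusted p = 0.0119) and −0.40 for Apoe (adjusted p = 0.0446), all from edgeR. The hepatocyte markers moved with these falls, with 2 of 9 lower over all livers and 7 of 9 without replicate 4 (median log2 fold changes −0.60 and −0.94) and sums of 40519.6 to 101820 CPM over the 4 DKO livers, and their part was not tested. The median over the 10 genes was −0.16 with all livers and −0.23 without replicate 4, beside 0.03 and 0.02 over all genes. Apoa1, Apoa5, Apoc2 and Apoc3 were not called in either fit.

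DKO replicate 4 lay outside the range of the other 3 DKO livers in 7 of the 10 genes, as it did in 71.1% of 14448 genes tested. For replicates 1, 2 and 3 it was 2, 7 and 4 of the 10 genes, and 39.7, 46.7 and 42.5% of all genes. Its Apoc1 was 1960.3 CPM where replicates 1 to 3 had 927, 835 and 1086, its Apoa2 5595 where they had 3311, 3207 and 4002, and its Apoe 18292 where they had 11398, 12793 and 13346. In each of these genes replicate 4 was above all SKO livers, within the WT range for Apoc1 and Apoe and above it for Apoa2. Its Apom, at 216 CPM against 111, 121 and 105, was above every other liver of the series, and its Apoa5, at 1799 CPM against 1596, 1373 and 1577, was too. Its Apoa1, at 5219 CPM against 9088, 7755 and 9016, was the lowest of all 12 livers, and its Apoa4 is given above. For Apob, Apoc2 and Apoc3 it lay among the other DKO livers. The same liver had the highest Alb, 75381 CPM against 25034 to 28544 in the other DKO livers, and had the Xist counts given above. Its Cpt2 of 102 CPM was the lowest of the series, below 119 to 127 in the other DKO livers and 109 to 157 in SKO livers. Its 5 counts on Atf3 were also the fewest of the series, where the other DKO livers had 164 to 265 and the WT livers 17 to 39. What part these have in its apolipoprotein values was not tested.

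Between DKO and SKO livers none of the 10 genes passed the threshold, and none had ranges that did not overlap, against 0.0209% and 4% of all genes tested. None had an unadjusted p under 0.05 in edgeR's quasi-likelihood test either, where 932 of 14363 genes had, and DESeq2 called 0 of the 10 and 0.675% of all genes. The smallest adjusted p was 0.845, for Apoc1 (edgeR). The values were −0.75 for Apoa4 with a standard error of 0.67, 0.47 for Apoc1, 0.33 for Apom, 0.30 for Apoa2, 0.23 for Apoe and −0.33 for Apoa1. Without DKO replicate 4 the Apoa4 value was −0.36 with a standard error of 0.28, those of Apoc1, Apom, Apoa2 and Apoe were 0.11, 0.02, 0.09 and 0.06, and again none was called, beside 0.103% of all genes (smallest adjusted p = 0.898, edgeR). Apoa4 in DKO replicates 1 to 3 lay within the SKO range of 7525 to 16470.3 CPM. A p above the threshold does not show that the genotypes are alike.

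The order of the 10 mRNAs by level was read per length, from the deposited FPKM (fragments scaled by gene length and library size). In WT livers Apoa2 was first at 9585 ± 769 FPKM (mean ± SD, n = 4), followed by Apoe at 8062 ± 1045 and Apoa1 at 7041 ± 537, and the ranges of neighbours in this order overlapped. Apoc1 at 2468 ± 256 and Apoc3 at 1592 ± 34.8 came next, each separate from its neighbours. Apob at 632 ± 55.5, Apoa5 at 586 ± 80.2 and Apoa4 at 355 ± 150 FPKM followed with overlapping ranges, and Apom at 192 ± 9.62 and Apoc2 at 8.34 ± 1.24 were separate below them. The place of Apoc2 is uncertain, since it shares nearly all its bases with Apoc2l. Apoa4 was thus in place 8 of 10 in WT livers. In SKO livers it was in place 2, at 6740.4 ± 2524 FPKM, between Apoa1 at 8189 ± 2367 and Apoa2 at 6354 ± 694, and these 3 genes and Apoe overlapped in range. In DKO livers it was in place 4 at 3976 ± 2481 FPKM over 4 livers, and at 5205 ± 410.1 over replicates 1 to 3. Apoc1 moved from 4 in WT to place 6 in SKO, behind Apoc3, with ranges that overlapped.

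**Figure D3:**
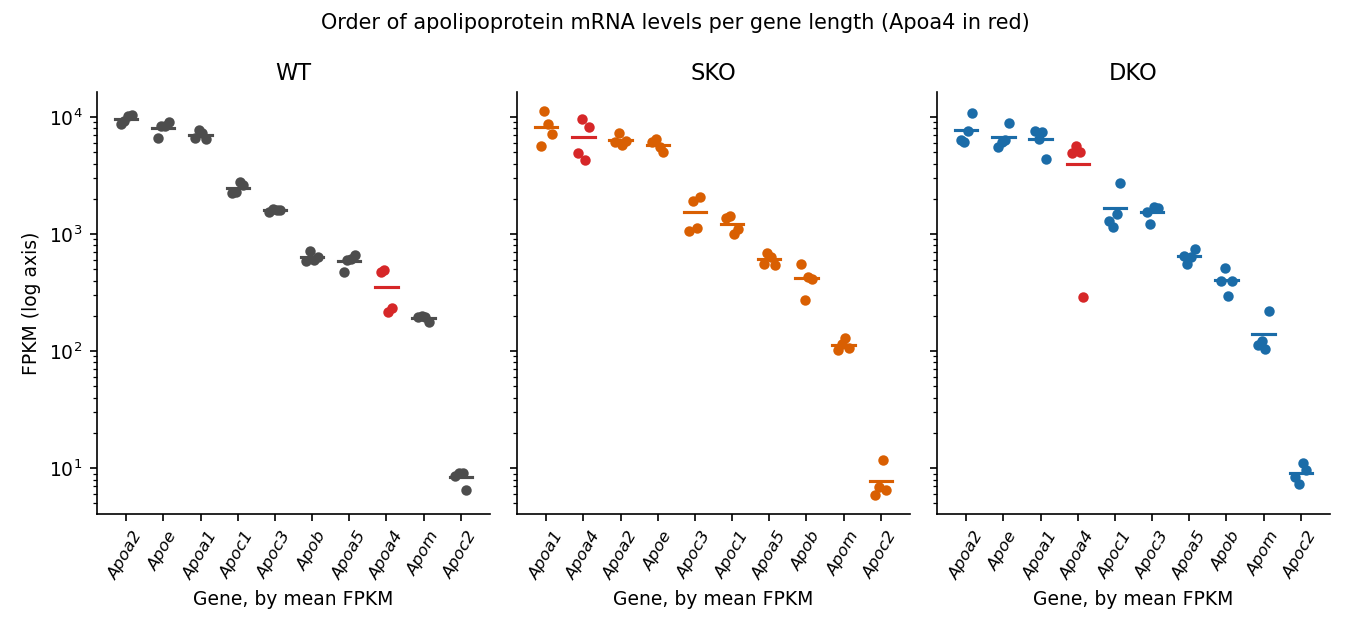
FPKM (log axis) of the 10 apolipoprotein genes in WT, SKO and DKO livers, ordered by mean within each genotype, with Apoa4 in red. Points are livers and bars are means of 4. Apoa4 lay at 216 to 497 FPKM in WT, among the lower genes, and at 4299 to 9533 in SKO, among the highest 4.

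As a share of all counts on genes, the 10 genes together took 4.02% ± 0.156 of the WT libraries (SD, n = 4), 4.83% ± 0.544 of the SKO libraries and 4.45% ± 0.466 of the DKO libraries. Each SKO liver was above each WT liver. Over DKO replicates 1 to 3 the share was 4.65% ± 0.316 (SD, n = 3). The SKO minus WT difference of 0.812 percentage points had an exact permutation p of 0.0286 (two-sided, n = 4 and 4), the smallest p that 4 against 4 livers allow. Its adjusted p was 0.0857 over the 3 pairs of genotypes, so it did not pass the correction, which a pair alone at this smallest p cannot pass. The exact p was 0.114 for DKO against WT and 0.457 for DKO against SKO (adjusted 0.171 and 0.457). Apoa4 alone took 0.0334 to 0.0804% of the counts in WT and 0.793 to 1.67% in SKO livers, and in DKO replicates 1 to 4 it took 0.911, 1.02, 1.02 and 0.0483% (Wilson 95% interval 0.0473 to 0.0493% for the last, counting error only). Of the counts on the 10 genes Apoa4 made up 0.844 to 2.10% in WT livers, but 18.1 to 30.9% in the SKO livers, 20.5 to 22.6% in DKO replicates 1 to 3 and 1.25% in replicate 4. The other 9 genes took 3.96% ± 0.162 (SD, n = 4) of the counts in WT livers, against 3.60% ± 0.210 in SKO livers and 3.70% ± 0.241 in DKO livers. For these the exact permutation p was 0.0571, 0.143 and 0.571 (SKO against WT, DKO against WT and DKO against SKO, n = 4 each, two-sided, adjusted 0.171, 0.214 and 0.571).

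**Figure D4:**
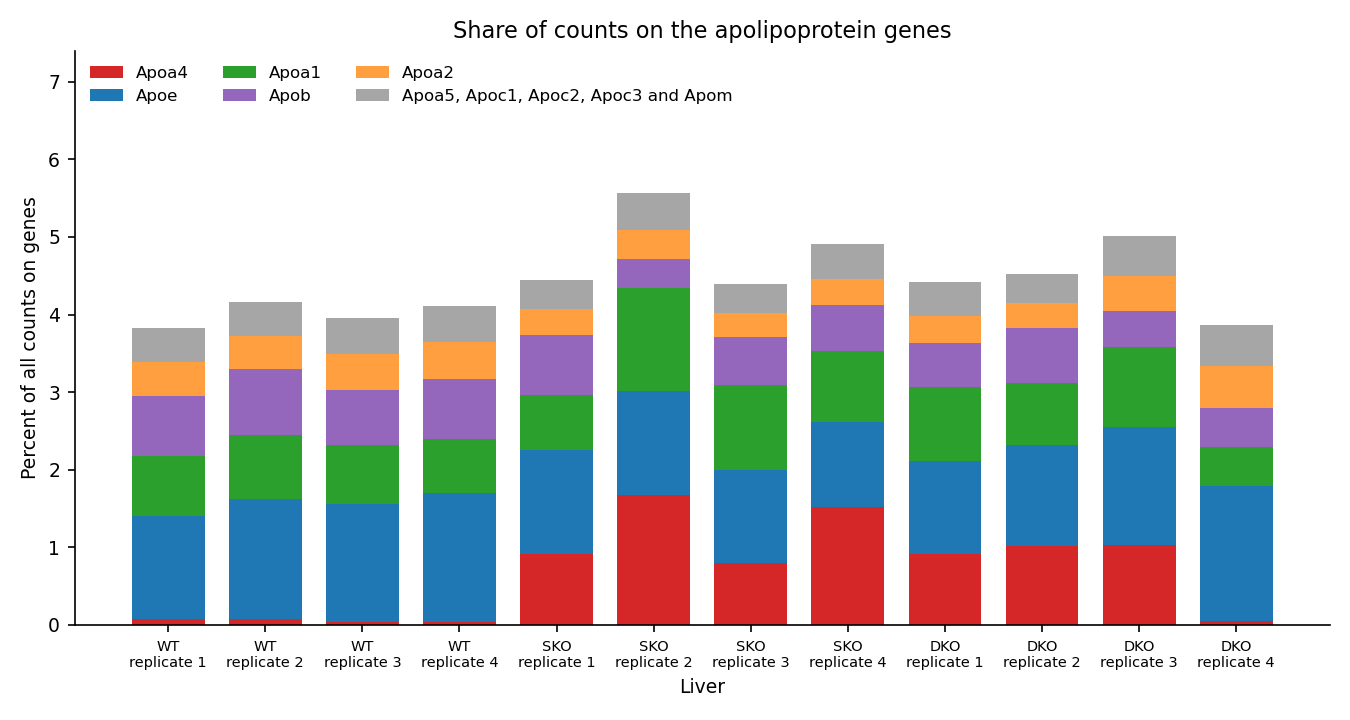
Percent of all counts on genes that fell on the apolipoprotein genes in each liver, stacked by gene, with Apoa5, Apoc1, Apoc2, Apoc3 and Apom together in grey. The total ran from 3.82 to 4.17% over WT livers, from 4.39 to 5.56% over SKO livers and from 3.87 to 5.01% over DKO livers, and the Apoa4 part was under 0.1% in the WT livers and DKO replicate 4.

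Of the 4 apolipoprotein genes of the chromosome 9 cluster, Apoa4 was the one that passed the test. Per 100 counts on Apoa1 there were 4.37 to 10.4 on Apoa4 in WT livers, 72.3 to 168 for SKO, 95.2 to 129.6 for DKO replicates 1 to 3 and 9.69 for replicate 4. Apoc3 and Apoa5, on either side of Apoa4, were not called in any of the 3 comparisons. Of the 14 further annotated genes inside the cluster or within 250 kb of its ends, 5 were tested and 1 was called in SKO against WT livers, where 32.1% of all genes were. The called gene was Gm47528, which lies inside the cluster on the strand opposite to Apoa4 and shares 1337 bases with it. Gm47528 had 11, 19, 23 and 15 counts in WT replicates 1 to 4, then 297, 713, 608 and 619 for SKO and 953, 869, 831 and 179 for DKO. Its log2 fold change was 4.91 in SKO against WT (adjusted p = 1.29e-06, edgeR), and per 10000 counts on Apoa4 it had 6.98 to 40.1 counts in WT livers, 21.9 to 41.9 in SKO livers and, in order of replicate, 53.3, 52.6, 47.8 and 192 in the DKO livers. Whether the counting used strand is not stated, and without it reads of Apoa4 and of this antisense annotation cannot be told apart. The tested genes outside the cluster, Bud13, Sik3, Pafah1b2 and Zpr1, were not called (log2 fold changes −0.79, 0.23, 0.16 and −0.01).

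Around the chromosome 7 cluster, which holds Apoe and Apoc1, no tested neighbour was called lower. Of 36 further genes inside it or within 250 kb, 19 were tested in SKO against WT livers and 7 were called, all higher, where 16.7% of all genes were called higher and 15.4% lower, with a median log2 fold change of 0.47. The 4 with the smallest p were Pvr (log2 fold change 2.20), Igsf23 (2.64), Relb (1.02) and Clasrp (0.56). Apoc4, an apolipoprotein gene inside the cluster, had 578 ± 59.0 CPM in WT livers, and with 507 ± 73.9 in SKO and 527 ± 65.6 in DKO livers (SD, n = 4) it was not called. In DKO against SKO livers none of the 21 tested neighbours was called, where 0.0209% of all genes were.

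Other apolipoprotein genes, from a list of 17 of which 15 were tested, were lower in SKO than in WT livers in 9 cases and higher in 0, where 15.4% and 16.7% of all genes were, with a median log2 fold change of −0.95. Apol7a was 14.9-fold lower, from 149.7 to 184 CPM in WT to 7.93 to 16.6 CPM in SKO livers, Saa4, a constitutive HDL protein, 26.1-fold, and Apon and Apol9b had log2 fold changes of −1.48 and −3.12. Their adjusted p was 1.24e-06, 5.80e-06, 7.66e-06 and 9.15e-06 (edgeR). In DKO against WT livers 2 of the 15 were called, both lower, where 4.39% of all genes were lower, and without DKO replicate 4 it was 9, all lower, where 17.5% were. In DKO against SKO livers none was called, beside 0.0209% of all genes. The 4 with the smallest p, Apof, Apon, Apol9a and Apol9b, had log2 fold changes of 0.78, 0.67, 1.86 and 1.86 with all livers, each at adjusted p = 0.664 to 0.750 (edgeR). Without DKO replicate 4 they were 0.39, 0.36, 0.20 and −0.02. All 4 DKO livers were above all SKO livers in Apof and Apon, at 339 CPM or more against at most 291 and at 159 or more against at most 150.5.

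Genes of VLDL assembly and Apob mRNA editing had 6 of 21 higher and 3 lower in SKO against WT livers, beside 16.7% and 15.4% of all genes, with a median of −0.01. Plin2, which coats lipid droplets, rose by a log2 fold change of 3.15, Dgat1, which makes triglyceride, by 0.82, and Mttp, which loads lipid onto apolipoprotein B, by 0.76 from 359 ± 25.1 to 601 ± 69.8 CPM (SD, n = 4). Tm6sf2, needed for lipidation of VLDL, changed by −1.05 (adjusted p = 2.36e-06, 0.000301, 0.000886 and 0.000525 for these 4, edgeR). Apobec1, the Apob mRNA editing enzyme, had 13.2 to 19.0 CPM in WT and 6.69 to 13.6 in SKO livers and was not called. In DKO against WT livers 2 of 21 were called, Plin2 and Creld1, both higher, where 6.06% of all genes were higher, and without DKO replicate 4 it was 6 higher and 3 lower, where 18.4% and 17.5% were.

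Receptors of lipoproteins and their partners had 3 of 14 tested genes higher and 5 lower in SKO against WT livers (median −0.26), beside 16.7% and 15.4% of all genes. In DKO against WT livers 2 were higher and 2 lower, and without DKO replicate 4 it was 2 and 6, beside 10.5% and 35.9% of all genes called in either direction. Scarb1, the HDL receptor, and Lrp1, a remnant receptor, had log2 fold changes of −1.77 and −1.51, and Cd36, a fatty acid and lipoprotein receptor, one of 2.89. Apobr, a receptor for the B48 form of apolipoprotein B, had 54, 37, 34 and 23 counts in the WT livers, 104, 221, 127 and 137 in the SKO livers and 49, 30, 69 and 37 in the DKO livers. It rose in SKO (log2 fold change 1.90, adjusted p = 0.000363, edgeR), and all DKO livers were below all SKO livers, with a log2 fold change of −1.71 that did not pass the correction over all genes (adjusted p = 0.167, edgeR, and 0.0838 without DKO replicate 4). Macrophages also express Apobr. The macrophage genes Cd68 and Gpnmb were at 5.68 to 11.1 and 0 to 0.509 CPM in WT livers, 24.2 to 54.2 and 26.3 to 54.2 CPM in SKO livers and 9.63 to 25.3 and 0.595 to 23.3 CPM in DKO livers. The list of 12 macrophage markers, none of them at 0 throughout a genotype, summed to 231 to 472 CPM over WT livers, 241 to 546 over SKO livers and 146 to 475 over DKO livers, and these 2 genes were the ones of its 10 tested that passed the test in SKO against WT, where the list's median log2 fold change was 0.02. In DKO against WT livers 1 of 11 tested markers was higher and 1 lower (median −0.32), where 6.06% and 4.39% of all genes were. Without DKO replicate 4 Cd68 and Gpnmb were higher and 6 other markers lower (median −0.85), where 18.4% and 17.5% of all genes were. In DKO against SKO livers the list's median was −0.44 with none of 12 called, beside 0.0209% of all genes. Without DKO replicate 4 it was −0.98, again with none called, beside 0.103% of all genes. In that fit 7 markers were at an unadjusted p under 0.05 (edgeR), and the share of all genes at that cut is not given here. The part of the macrophage markers in the Apobr values was not tested.

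Lipases, transfer proteins and their regulators had 3 of 16 genes higher and 7 lower in SKO against WT livers (median −0.55), beside 16.7% and 15.4% of all genes. Fgf21, a fasting hormone that governs triglyceride clearance, rose by a log2 fold change of 4.50, and Lipa, the lysosomal acid lipase, by 1.12. Lipc, the hepatic lipase gene, had a log2 fold change of −1.11 (adjusted p = 8.10e-06, 5.57e-05 and 0.000167 for Fgf21, Lipa and Lipc, edgeR). In DKO against WT livers 1 of the 16 was called higher and 2 lower, and without DKO replicate 4 it was 2 higher and 9 lower, beside 10.5% and 35.9% of all genes called in either direction. In DKO against SKO livers none of these receptors, lipases or VLDL genes was called, as few genes were at all (0.0209% of those tested).

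A list of transcription factors and cofactors, whose action on the apolipoprotein genes was not tested here, had 6 of 27 tested genes higher and 7 lower in SKO against WT livers. Its median was −0.08, and 16.7% and 15.4% of all genes were higher and lower. The 4 with the smallest p were Pparg (log2 fold change 1.48), Atf3 (4.28), Nr0b2 (−4.93) and Srebf1 (−1.22). Creb3 had 37.6, 45.3, 40.9 and 40.3 CPM in WT replicates 1 to 4 and 68.1, 105, 59.7 and 93.3 CPM in SKO replicates 1 to 4, a rise of 1.01 on the log2 scale (adjusted p = 0.00107, edgeR). In DKO replicates 1 to 4 it had 78.8, 75.6, 69.2 and 38.8 CPM, so that replicate 4 was again in the WT range. Creb3l3, a liver-enriched factor of the same family that acts on Apoa4, had 519 ± 53.3 CPM (SD, n = 4) in the WT livers and was not called in any comparison, at 655 ± 129.96 in SKO and 604 ± 44.1 in DKO livers. Neither was Esrra, with 61.8 ± 5.85, 77.4 ± 11.3 and 65.3 ± 6.67 CPM (SD, n = 4). Hnf4a, a main activator of apolipoprotein genes in hepatocytes, had 891 and 840.1 CPM on average in WT and SKO livers, a log2 fold change of −0.07. In DKO against WT livers 2 of the 27 were called, 1 in each direction, where 10.5% of all genes were called. Without DKO replicate 4 it was 6 higher and 9 lower, where 18.4% and 17.5% of all genes were. In DKO against SKO livers none of the 27 was called, where 0.0209% of all genes were.

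**Figure D5:**
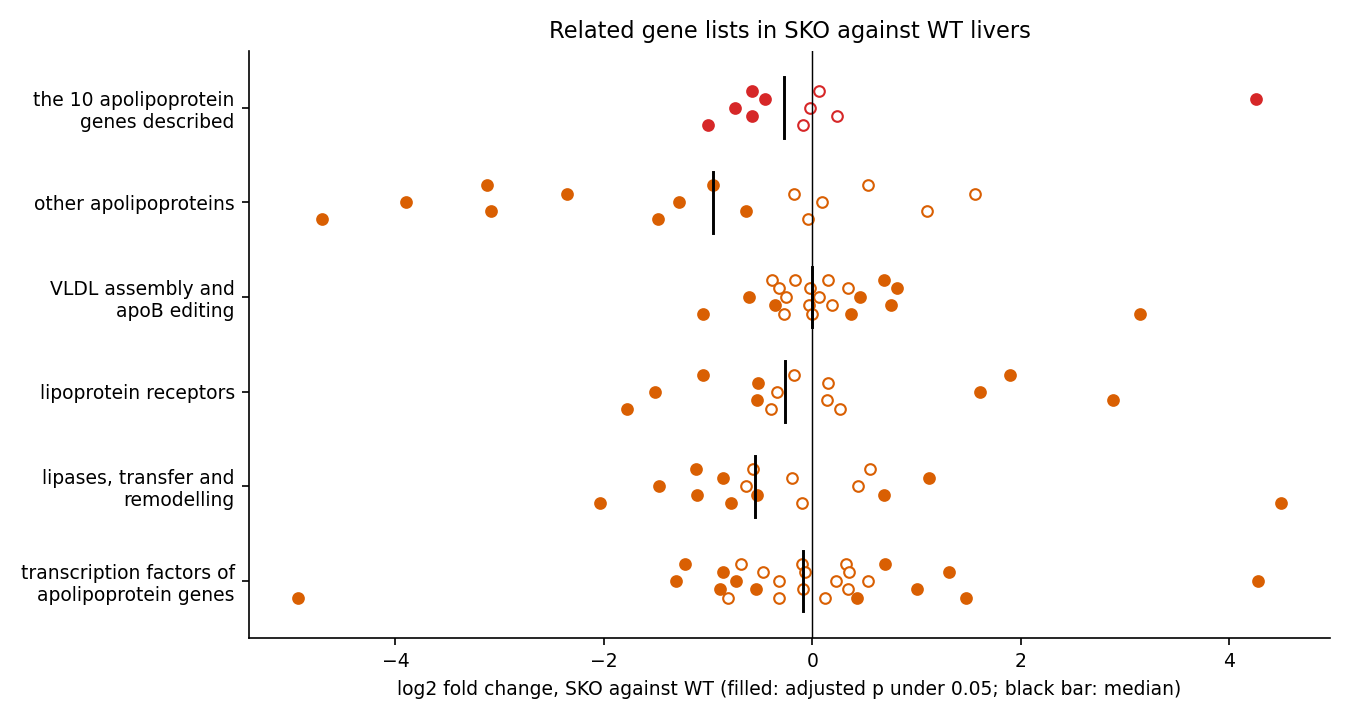
Log2 fold changes in SKO against WT livers of the 10 apolipoprotein genes and of 5 related lists, 1 point per gene. Filled points passed an adjusted p of 0.05 in edgeR's test, and black bars are medians. The medians were −0.27 for the 10 genes, −0.95 for other apolipoproteins, −0.01 for VLDL assembly, −0.26 for receptors, −0.55 for lipases and transfer proteins and −0.08 for transcription factors, beside 0.03 over all genes.

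The mRNAs whose log2 CPM ran most like that of Apoa4 over the 12 livers were Ttc39a (Pearson r = 0.990), Mta1 (0.989), Rhoc (0.989), Tubb2a (0.989) and Arhgdia (0.987), among 9783 genes of mean CPM of at least 5. Tubb2a, a beta tubulin gene, for example had at most 33.5 CPM in WT livers, from 385 to 842 in SKO livers and 30.1 CPM in DKO replicate 4. These r values are a description, since the 12 livers fall into genotypes whose means differ. On the same scale Apom and Apoc1 had r of −0.94 and −0.94 with Apoa4, Apoa2 −0.90, Apoe −0.87 and Apob −0.62, whereas Apoa1 had 0.46.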

How the data were processed

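RNA-seq of 12 livers was analysed, with genotypes taken from the labels. The deposited table holds whole-number read counts by Ensembl gene, not normalized, and the submitters' notes name HISAT2 and the builds GRCm38 and mm10. The counting program, the annotation and the use of strand are not given in the sources used here. The table's starts and ends match GENCODE M21 (GRCm38) for 1435 of 52073 shared genes and 0 of the 10, so they do not follow that annotation of the named build. Which build they follow is not settled here, and they were not mixed with the coordinates of the promoter windows. The deposited FPKM values are the counts divided by the table's gene length times 1 constant per liver. The authors' own comparison tables hold fold changes and p-values and were not used.

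Genotypes were compared in pairs with edgeR 4.0.16 in R 4.3.3 (filterByExpr, TMM within the 8 livers, quasi-likelihood F test, Benjamini-Hochberg adjustment over all genes tested, threshold 0.05). The standard error is the log2 fold change divided by the square root of its F value. CPM used TMM over all 12 livers. Shares of counts were compared by exact permutation tests (scipy 1.17.1). The fit was tested on simulated data. Total counts had a median of 17908507 per liver, and no pair of livers of a genotype was a copy (smallest chi-square per degree of freedom 18.5). P-values measure the spread between these 4 livers per genotype.

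The 10 genes and the lists were chosen with earlier results of these data known, and no list was tested for enrichment. Named were the 10 genes, the 4 genes of each list with the smallest p in SKO against WT or DKO against SKO, genes the study names (Apobr, Creb3, Creb3l3, Esrra, Atf3, Cpt2), up to 4 genes of smallest p near each cluster, the 5 genes most like Apoa4, and Alb, Xist and Y-linked genes as checks. One result that this rule would name is not reported here. Named after their values were seen are Apoc4, Apobec1, Hnf4a, Creld1, Zpr1, Apoc2l, Gm47528, Fabp2, Cd68 and Gpnmb. Alternatives were RLE size factors, library totals, DESeq2 1.42.0, no low-count filter, 1 fit of 12 livers, a replicate block, Xist as a covariate, leaving out livers, and the 10 genes left out of library sizes.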

Additional observations from a re-analysis of the deposited data

Results flagged for a closer look

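A liver far from the other 3 of its genotype was looked for in 36 groups of 4 livers with Dixon's test at the 95% level, where chance gives about 1.8. It found 3. The Apoa4 level of DKO replicate 4 was 506 CPM where the other DKO livers had 8654 to 10050.2. The Apom level of the same liver was 216 CPM where the others had 105 to 121. The Apoc2 level of SKO replicate 3 was 9.23 CPM where the other SKO livers had 4.62 to 5.32, from counts of 178 against 72 to 105.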

How the results depend on the processing

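Between DKO and WT livers 1510 genes were called, and the count was 2635 with DESeq2, 691 with the replicate block, 5168 with Xist as a covariate and 5253 without both livers with Xist counts, and when single livers were left out it was 5253 without DKO replicate 4 and 244 to 719 without any of the other 7. Between DKO and SKO livers 3 were called, against 97 with DESeq2, 35 without a low-count filter, 0 with the replicate block, 9 with Xist as a covariate, 21 without both livers with Xist counts and 0 to 15 when single livers were left out. Of the alternatives for the 10 genes' fold changes, 463 left the direction of a called gene and its side of the threshold as they were, 31 ended a call and 16 added one, and no called gene changed direction. The calls that ended were Apoe and Apob in SKO against WT and Apoa4 in DKO against WT, and those added were Apoa2, Apob, Apoc1, Apoe and Apom in DKO against WT. With library totals as the scale the median of all genes moved from 0.03 to 0.20 in both comparisons with WT, and calls were 3759 higher and 1562 lower in SKO against WT (2378 and 2198 with TMM) and 1788 and 469 in DKO against WT (876 and 634). The uncalled values of Apoc2 and Apoc3 in SKO against WT and of Apoa1 and Apoc3 in DKO against WT then changed sign. The labels number the replicates of each genotype alike, and deviations of livers with the same number had r from −0.43 to 0.16 over 12 pairs. Livers with different numbers were not compared, so whether the numbers pair the livers is not settled. With the block, Apoa4 in DKO against WT had an adjusted p of 0.0619, and Apoe and Apob in SKO against WT 0.116 and 0.0698 (edgeR). Shares of counts kept their direction under each alternative, and with 3 against 4 livers their exact test cannot pass the threshold. The order of levels was the same when CPM per length replaced FPKM. The depth limits Apoc2 most, with 72 to 178 counts per liver. These counts are also uncertain, since Apoc2 shares nearly all its bases with Apoc2l.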
